A study of Mus musculus with 6 samples.

Results

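Pyruvate can be used by several routes besides oxidation to acetyl-CoA. Here 10 genes for enzymes on those routes or linked to them were read in C2C12 cells, a mouse myoblast line. They were Pcx, Pck2, Me1, Me2, Gpt2, Got1, Got2, Acly, Mdh1 and Glud1, chosen by name from the enzymes that consume pyruvate, refill the TCA cycle or move amino groups. All probe sets of the array that carried 1 of these symbols alone were taken, which gave 35 probe sets of the 45101 on the array and 10 genes of 18194 with a single-symbol probe set. Of the 35 probe sets, 23 were bright enough to be tested, 8 were too dim and 4 were Affymetrix control probe sets for Pcx, and every gene had at least 1 tested probe set.

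Total RNA came from 3 untreated samples and 3 given 50 mM sodium pyruvate for 72 h, 1 Affymetrix Mouse430_2 array each. Seeding was in 100 mm dishes, and DMEM, 10% fetal bovine serum, 4 mM L-glutamine and 1% antibiotics were common to both groups. The DMEM of the pyruvate medium is described as free of sodium pyruvate before the addition, while nothing is said of the pyruvate in the basal DMEM, so the untreated cells were not necessarily without it. Glutamine, a substrate of several of these routes, was thus present in both groups, and no medium with another sodium salt was analysed here. All samples are of 1 cell line, labelled undifferentiated, and nothing in the labels shows that samples of one group were grown apart; p-values then cover the spread between these samples alone, and that spread may be technical.

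Anaplerosis is the refilling of TCA cycle intermediates that leave the cycle for synthesis. Pyruvate carboxylase (Pcx) makes oxaloacetate from pyruvate, the malic enzymes (Me1 in the cytosol, Me2 in mitochondria) interconvert malate and pyruvate, and mitochondrial phosphoenolpyruvate carboxykinase (Pck2) draws oxaloacetate off. Transaminases tie pyruvate and oxaloacetate to amino acids: Gpt2 exchanges pyruvate and glutamate for alanine and 2-oxoglutarate, Got1 and Got2 exchange oxaloacetate and aspartate, and with malate dehydrogenase (Mdh1) they form the malate-aspartate shuttle that carries reducing equivalents into mitochondria. Glutamate dehydrogenase (Glud1) releases 2-oxoglutarate from glutamate, and ATP citrate lyase (Acly) cuts exported citrate into acetyl-CoA and oxaloacetate.

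The promoters of the gene that fell most and the gene that rose most are shown, since the arrays read the transcripts made from them. RefSeq promoter entries of mouse build GRCm38.p6 were found for 9 of the 10 genes, with 11 starts in all, and Me2 had none. Each line gives the 250 bases before the start, read 5′ to 3′ on the gene's strand, with GC boxes (GGGCGG, searched on both strands) in capitals. The Gpt2 window is chr8:85492326-85492575 on the plus strand and the Me1 window chr9:86695915-86696164 on the minus strand.
Gpt2: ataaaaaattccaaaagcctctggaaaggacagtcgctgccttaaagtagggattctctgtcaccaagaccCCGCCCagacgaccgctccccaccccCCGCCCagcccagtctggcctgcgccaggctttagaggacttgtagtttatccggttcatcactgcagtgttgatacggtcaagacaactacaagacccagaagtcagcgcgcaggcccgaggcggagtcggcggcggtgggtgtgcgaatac
Me1: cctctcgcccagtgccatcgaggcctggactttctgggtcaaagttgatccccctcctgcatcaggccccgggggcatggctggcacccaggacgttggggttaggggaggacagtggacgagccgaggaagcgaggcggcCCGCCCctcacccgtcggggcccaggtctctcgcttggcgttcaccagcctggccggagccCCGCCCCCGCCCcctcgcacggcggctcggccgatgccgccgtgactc

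The Gpt2 window held 2 GC boxes and 16 CpG pairs at 57.6% G and C, and the Me1 window 3 GC boxes and 23 CpG pairs at 72.0%, where the median of all 32851 mouse promoter windows was 6 CpG pairs and 52.4%. GC boxes lay in 7 of the 11 windows of these genes, and 32.7% of all windows of this length hold one. None of 6 other motifs, each searched on both strands, had a match in either printed window. One was the CCAAT box, spelled as in its name, which was in 5 of the 11 windows and 33.8% of all. The TATA box, TATAAA, was in 1 of the 11 (Got2) and 12.4% of all. For the E-box, CACGTG, these were 1 (Pcx) and 6.0%. For the myogenic E-box, CAGCTG, they were 2 (Got2 and the inner Pcx start) and 13.0%. The antioxidant response element, TGACNNNGC, through which the factor NRF2 acts, was in 0 of the 11 and 10.2% of all. ATF4-type elements, TGATGNAA, were in 3.5% of all windows and in 2 of the 11, those of Pck2 and Got1, and are shown in capitals with their surroundings because these genes recur below beside Atf4. The only Pck2 window did not start from the RefSeq 5′ end of its gene, while the Got1 window did. The Pck2 stretch is chr14:55540148-55540185 on the plus strand and the Got1 stretch chr19:43524685-43524722 on the minus strand.
Pck2: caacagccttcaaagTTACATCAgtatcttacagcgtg
Got1: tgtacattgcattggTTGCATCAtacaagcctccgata
A match of letters is a description of the sequence and not evidence that a factor binds there.

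Signals below are the deposited array values on a linear scale, ± gives the SD over 3 arrays, and log2 changes are pyruvate minus untreated on log2(signal + 16), with SE. A gene is read on its brightest probe set, and it rose or fell if its adjusted p in limma, over all 22519 probe sets tested, was under 0.05. By this rule 4 of the 10 genes were higher with pyruvate (Pcx, Me1, Got2 and Mdh1), 1 was lower (Gpt2) and 5 were not called (Pck2, Me2, Got1, Acly and Glud1). Mdh1 counts as higher by its brightest probe set alone, since its 2 other tested probe sets were called lower. That probe set was the brightest over all arrays but not in untreated cells. Over all 10685 genes tested, 20.7% were called higher and 14.5% lower, so the number of calls among the 10 genes was not far from the background. After quantile normalization the counts were again 4 higher and 1 lower, where 19.9% and 14.7% of all genes were called. The median log2 change of the 10 genes was 0.10, against 0.03 over all genes tested. Groups did not overlap in 6 of the 10 genes and in 48.6% of all genes. By the known location of their products, 6 of the genes are mitochondrial (2 higher, 1 lower, 3 not called) and 4 cytosolic (2 higher, 0 lower, 2 not called). The cytosolic genes counted as higher are Me1 and Mdh1, the latter with the limit just given.

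**Figure D1:**
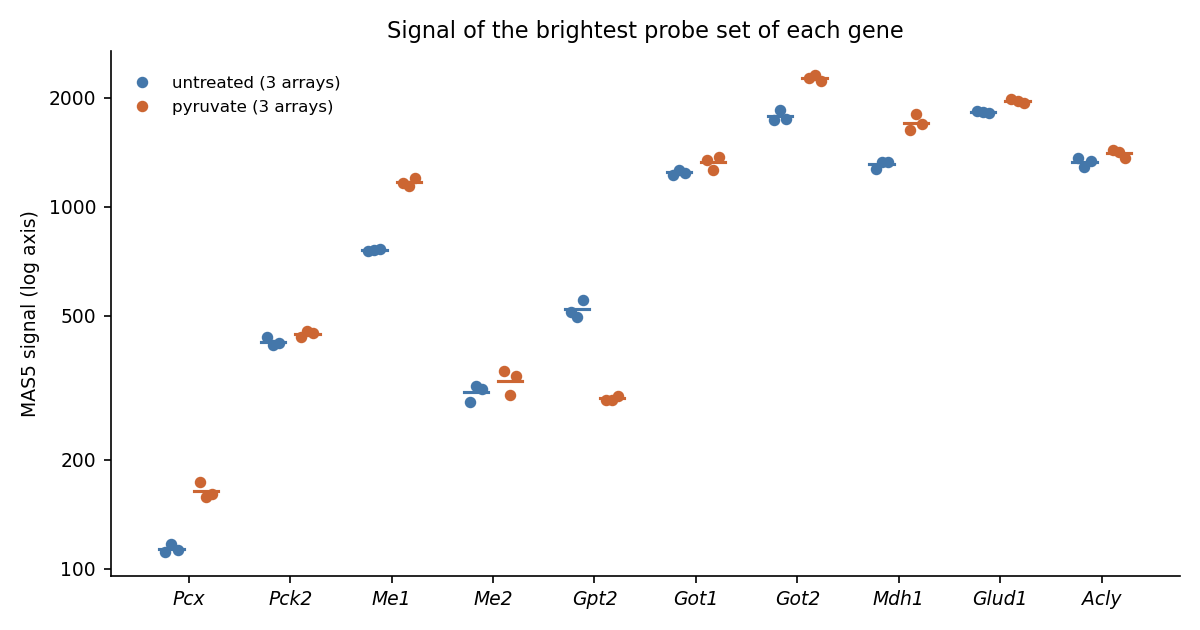
Signals of the brightest probe set of each of the 10 genes on every array, on a log axis; points are arrays and short lines are group means. The pyruvate points of Pcx, Me1, Got2 and Mdh1 lie above all untreated points, those of Gpt2 lie below, and those of Pck2, Me2, Got1 and Acly overlap them; the Glud1 pyruvate points also lie above the untreated ones, by a small difference that was not called. Levels of different genes are not comparable, since each has its own probes. Other Mdh1 probe sets, not shown here, were called lower.

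Some facts of the arrays bear on all of these values. The authors had scaled each array to a trimmed mean signal of 150, and pairs of arrays correlated at r = 0.985 to 0.991 within groups and 0.979 to 0.983 between groups, across probe sets. Bright transcripts were higher with pyruvate as a class: the 460 tested probe sets with a mean signal of 3000 or more had a median log2 change of 0.34, the 1758 between 1000 and 3000 a median of 0.06 and the 4932 between 300 and 1000 a median of 0.00, so the bright genes Got2, Mdh1, Glud1, Acly and Got1 are also given after quantile normalization, which removes that trend. Differences between the 3′ and 5′ control probe sets of actin, Gapdh and the transferrin receptor changed between the groups by -0.01 to 0.01 on the log2 scale. The bright actin and Gapdh controls themselves were higher with pyruvate by 0.50 to 0.57, and those of the transferrin receptor by 0.06 to 0.11. Myoblast markers were on in both groups but did not move together: of 5 tested, 2 were higher and 2 lower (2 and 3 after quantile normalization). Myod1 rose from a mean of 1268 to 1525, while Myf5 fell from 830.4 to 527 and Cdh15 from 2020 to 1540, Des was at 1835 and 1735 without a call, and Pax7 was under the filter. Myotube transcripts were also on in untreated cells and low with pyruvate: 14 of 15 listed genes fell, and their summed signal went from 10885 to 11269 down to 1942 to 2387. The whole culture was measured, so fewer differentiating cells and less RNA of a gene per cell cannot be told apart, and the part of this shift in the results below was not tested. Macrophage markers summed to 226 to 256 untreated and 353 to 406 with pyruvate; Cd14 went from 108 to 224 (log2 change 0.95, adjusted p = 9.6e-06) and was the 1 called of 3 tested, while Ptprc, which marks all leukocytes, was under the filter at 10.7 and 7.73. Adipocyte markers summed to 206 to 229 and 421 to 472, and there Lpl and Cebpa accounted for the rise while Adipoq was at 9.83 and 11.3; hepatocyte markers summed to at most 69.1 in either group.

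Of the enzymes that make oxaloacetate or phosphoenolpyruvate, Pcx rose and Pck2 was not called. On its ordinary probe set Pcx read 112, 117 and 113 in untreated cells and 173, 158 and 161 with pyruvate. Every pyruvate array was above every untreated one, and the mean went from 114 ± 2.91 to 164 ± 8.21, which is 0.47 on the log2 scale with an SE of 0.08 (adjusted p = 0.0012). Of all genes tested, 5.64% rose more than Pcx. Pcx is also the target of 4 control probe sets, named by Affymetrix for the 5′ end, 2 middle parts (MA and MB) and the 3′ end of the transcript, which stood outside the test. The 3′ one read 64.4, 56.2 and 56.9 in untreated cells and 104, 95.9 and 102 with pyruvate, again without overlap, and the MB one went from 15.3 ± 1.95 to 45.6 ± 10.3, from below the brightness filter. The 5′ one (62.2 ± 14.3 and 75.7 ± 1.66) and the MA one (47.0 ± 6.79 and 43.1 ± 2.49) overlapped between the groups. With control probe sets kept in the fit, an alternative chosen after the values were seen, the 3′ probe set rose by 0.63 with an SE of 0.10 (adjusted p = 0.00084), the 5′ and MA ones were not called (adjusted p = 0.20 and 0.66) and the MB one stayed under the filter. The parts of the Pcx transcript were thus not read alike. Higher pyruvate values stood on the gene's ordinary probe set and on 2 of the 4 controls, of which the MB one was under the filter.

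Pck2, which turns oxaloacetate into phosphoenolpyruvate inside mitochondria, read 438, 414 and 421 in untreated cells and 438, 453 and 449 with pyruvate. The groups met at their edges, and the log2 change of 0.07 had a 95% interval from -0.05 to 0.19 (adjusted p = 0.34). Its dimmer probe set gave 0.05 with an SE of 0.13 (adjusted p = 0.81). A change of Pck2 as large as that of Pcx lay outside the interval of the brighter probe set.

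Of the malic enzymes, the cytosolic one was called higher and the mitochondrial one was not called. Me1, the cytosolic NADP-dependent enzyme that yields pyruvate and NADPH, read 757, 760 and 766 in untreated cells and 1160, 1141 and 1204 with pyruvate. Replicates were close together in both groups and the groups were far apart: the mean went from 761 ± 4.69 to 1168 ± 31.9, 53.6% higher, which is 0.61 on the log2 scale with an SE of 0.05 (adjusted p = 4.3e-06), and 2.66% of all genes rose more. The dimmer Me1 probe set also rose, by 0.32 with an SE of 0.10 (adjusted p = 0.035), though its arrays overlapped (269, 208 and 197 against 288, 264 and 293), and without the brightness filter it was not called (adjusted p = 0.10).

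Me2, the mitochondrial enzyme, read 289, 320 and 314 untreated and 351, 303 and 340 with pyruvate, which overlap. Its log2 change was 0.10 with a 95% interval from -0.06 to 0.26 (adjusted p = 0.32). The other tested Me2 probe sets gave -0.08 (adjusted p = 0.66) and 0.28 (adjusted p = 0.081), the latter without overlap between groups (62.3, 65.4 and 76.6 against 92.4, 77.7 and 88.8), and a further one was at 3.9 or less on every array.

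Alanine aminotransferase 2, Gpt2, was the gene of the set that fell. On its brightest probe set it read 513, 496 and 554 in untreated cells and 293, 294 and 301 with pyruvate. The pyruvate arrays were tightly grouped and all far below the untreated ones: the mean went from 521 ± 29.8 to 296 ± 4.36, or 0.57 times the untreated mean, with a log2 change of -0.78 and an SE of 0.06 (adjusted p = 4.2e-06). Only 1.10% of all genes tested fell more. A second probe set read 387, 424 and 469 against 232, 218 and 226 (-0.87, adjusted p = 9.6e-06), and another read 364, 413 and 446 against 271, 292 and 265 (-0.53, adjusted p = 0.00037). The dimmest was not called (193, 237 and 184 against 213, 125 and 167; -0.28, adjusted p = 0.19), with 1 pyruvate array inside the untreated range. So 3 of 4 Gpt2 probe sets fell and the remaining one had a lower mean. Those at -0.78 and -0.87 carry the Affymetrix suffix s, which marks probes shared by several transcripts. The probe sets without it gave -0.53 and -0.28, and whether the suffix plays a part was not tested.

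Of the aspartate aminotransferases, the mitochondrial one was called higher and the cytosolic one was not called. Got2 read 1732, 1846 and 1752 in untreated cells and 2274, 2317 and 2231 with pyruvate, with no overlap, a mean change from 1777 ± 60.9 to 2274 ± 43.1 and a log2 change of 0.35 with an SE of 0.05 (adjusted p = 0.00020). The dimmer tested probe set read 635, 482 and 580 against 703, 667 and 737 and rose by 0.31 with an SE of 0.09 (adjusted p = 0.017), but was not called without the brightness filter (adjusted p = 0.065). After quantile normalization the brighter one rose by 0.28 (adjusted p = 0.00038) and the dimmer by 0.32 (adjusted p = 0.015). The remaining 2 Got2 probe sets were below the filter, where the highest group mean was 24.8.

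Got1, the cytosolic enzyme, has a single probe set here, which read 1221, 1266 and 1243 untreated and 1344, 1262 and 1370 with pyruvate. One pyruvate array lay inside the untreated range, and the log2 change was 0.09 with a 95% interval from -0.02 to 0.20 (adjusted p = 0.19), or 0.06 after quantile normalization (adjusted p = 0.34).

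Mdh1, the cytosolic malate dehydrogenase of the shuttle, was read in opposite directions by its probe sets. The probe set that the rule of the brightest took read 1268, 1331 and 1330 untreated and 1628, 1799 and 1696 with pyruvate, a rise by 0.38 with an SE of 0.05 (adjusted p = 0.00023). Another read 1404, 1466 and 1611 against 914, 1193 and 1048, a fall with a log2 change of -0.51 and an SE of 0.09 (adjusted p = 0.0010). The last of the 3 read 1349, 1253 and 1483 against 974, 1019 and 1031, a change of -0.43 with an SE of 0.06 (adjusted p = 0.00036). Brightness was taken over all arrays, those with pyruvate included. In untreated cells the probe set that rose had the lowest mean of the 3, at 1310 against 1494 and 1361. With pyruvate it had the highest, at 1708 against 1052 and 1008. Which Mdh1 probe set the rule took thus depended on the change itself. None of the 3 overlapped between groups, and quantile normalization left the signs as they were (0.34, -0.53 and -0.44). Both probe sets that fell carry the Affymetrix suffix x, which marks probes that can match other transcripts; whether that plays a part here was not tested. Of 2 dim Mdh1 probe sets, 1 was lower without overlap (28.4 ± 1.11 and 21.6 ± 5.09) and 1 overlapped. With the mean over the tested probe sets taken in place of the brightest, Mdh1 was called lower (log2 change -0.18, adjusted p = 0.031), and the 10 genes then had 3 called higher and 2 lower. The direction of Mdh1 is therefore not settled by these arrays.

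Acly showed a smaller split. Its brightest probe set read 1365, 1285 and 1337 untreated and 1430.4, 1419 and 1359 with pyruvate, with overlap and a log2 change of 0.08 with a 95% interval from -0.03 to 0.18 (adjusted p = 0.25), or 0.04 after quantile normalization (adjusted p = 0.52). A second, again with the suffix x, read 1260.2, 1279 and 1227 against 1140.4, 1139.7 and 1115, a small fall with a log2 change of -0.15 (SE 0.05, adjusted p = 0.027). The last tested one rose by 0.25 (SE 0.05, adjusted p = 0.0041), from 500.3, 491 and 476 to 616, 574 and 570. Quantile normalization left both calls in place, at -0.17 (adjusted p = 0.011) and 0.26 (adjusted p = 0.0038). Probe sets called in both directions were thus found in 2 of the 8 member genes with at least 2 tested probe sets, Mdh1 and Acly; over all 5173 such genes the share was 3.36%.

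Glud1, which releases ammonia and 2-oxoglutarate from glutamate, read 1834, 1830.1 and 1817 untreated and 1978, 1958 and 1932 with pyruvate. These arrays did not overlap, but the difference was small, at 0.10 with an SE of 0.04 (adjusted p = 0.11), and 0.03 after quantile normalization (adjusted p = 0.53). Its other probe set overlapped and gave 0.04 (adjusted p = 0.67).

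**Figure D2:**
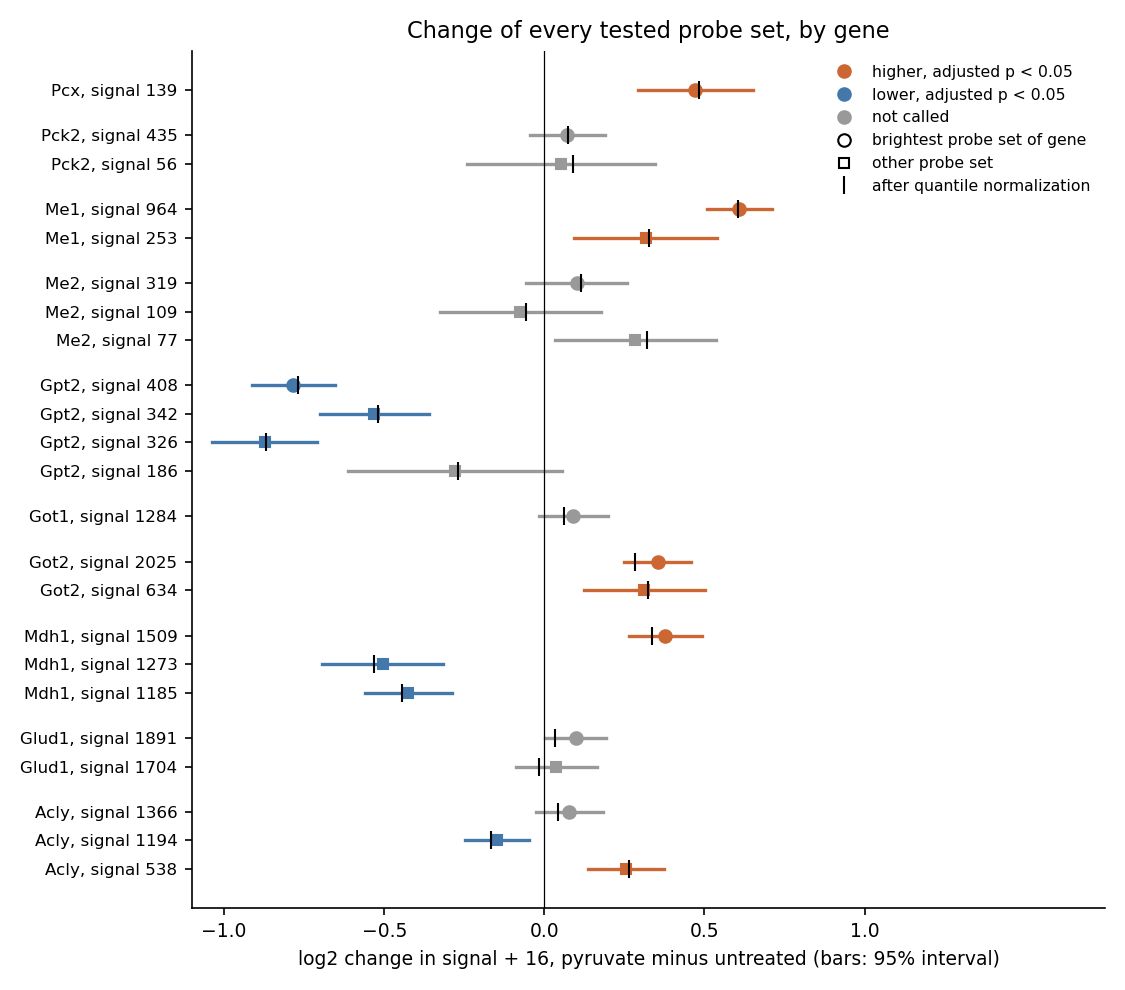
Log2 change of each of the 23 tested probe sets, pyruvate minus untreated, with 95% intervals from limma as bars and the mean signal beside the gene name; circles are the brightest probe set of a gene, squares the others, and black ticks the values after quantile normalization. Both Me1 and both Got2 probe sets lie to the right of 0 and all 4 of Gpt2 to the left, while Mdh1 and Acly have called probe sets on both sides.

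Across all tested probe sets of the 10 genes, 7 were called higher, 6 lower and 10 not called. Among all tested probe sets of the array 16.3% were called higher and 15.9% lower. The 8 probe sets below the filter had signals between 0.3 and 35.0 on every array, and 1 of them, of Mdh1, did not overlap between the groups.

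**Figure D3:**
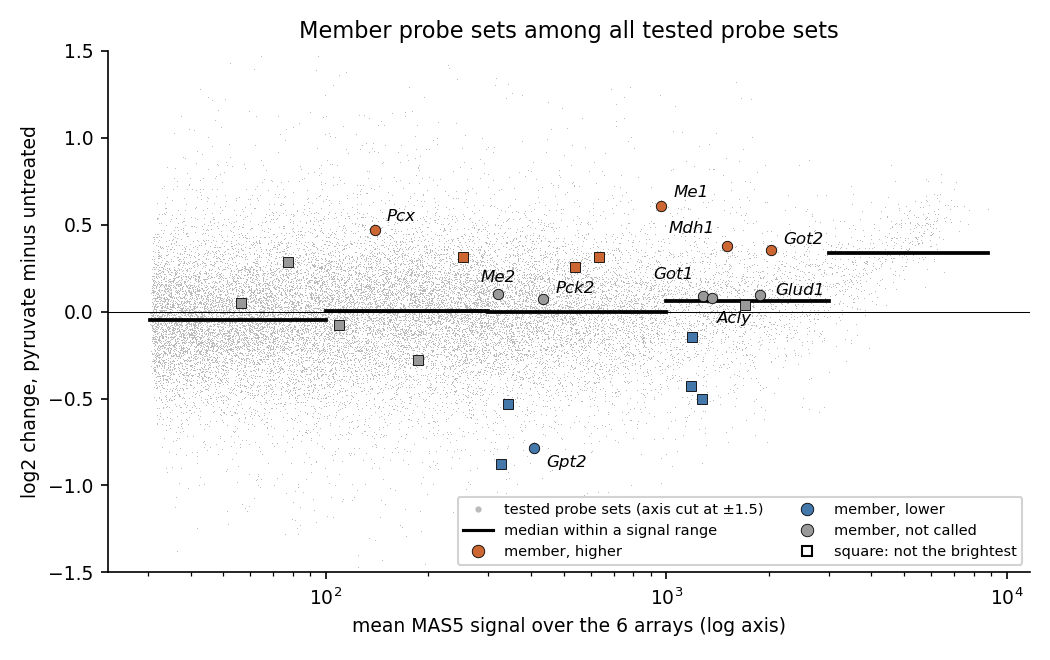
Log2 change against mean signal (log axis) for all 22519 tested probe sets in grey, with the members' 23 in colour (circles for the brightest of a gene, squares for the rest) and black lines for the median change within 5 signal ranges; the vertical axis ends at 1.5 in each direction. Me1, Pcx and Gpt2 stand clear of the median of probe sets of like signal, the brightest probe sets of Got2 and Mdh1 lie above a median of 0.06 and those of Got1, Acly and Glud1 near it, while the other Mdh1 probe sets of that signal range lie below it, at -0.51 and -0.43.

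Differences between the paired isozymes were read within each array, which drops the array's overall scaling but not the trend with brightness. Me1 minus Me2 stood at 0.08, -0.06 and -0.02 on the untreated arrays, relative to their mean, and at 0.42, 0.60 and 0.51 on the pyruvate arrays. All 3 pyruvate values were higher, so the log2 change of Me1 exceeded that of Me2 by 0.51 (pooled SD 0.08), and all 6 combinations of their tested probe sets gave a positive difference, from 0.03 to 0.68. Got1 minus Got2 stood at 0.01, -0.03 and 0.02 untreated and at -0.24, -0.36 and -0.19 with pyruvate. The log2 change of Got1 was thus lower than that of Got2 by a difference of -0.26 (pooled SD 0.06), and 0 of 2 combinations were positive. Mdh1 minus Mdh2, the mitochondrial malate dehydrogenase, differed by 0.15 on the brightest probe sets (pooled SD 0.03), by 0.35 after quantile normalization and by 0.23 after cyclic loess. Only 2 of 6 combinations were positive, and with the Mdh1 probe sets that fell the value was -0.74 or -0.66. For each of the 3 pairs an exact two-sided permutation test gave p = 0.10 (adjusted over the 3 pairs, 0.10), which is the smallest p that 3 against 3 arrays allow.

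**Figure D4:**
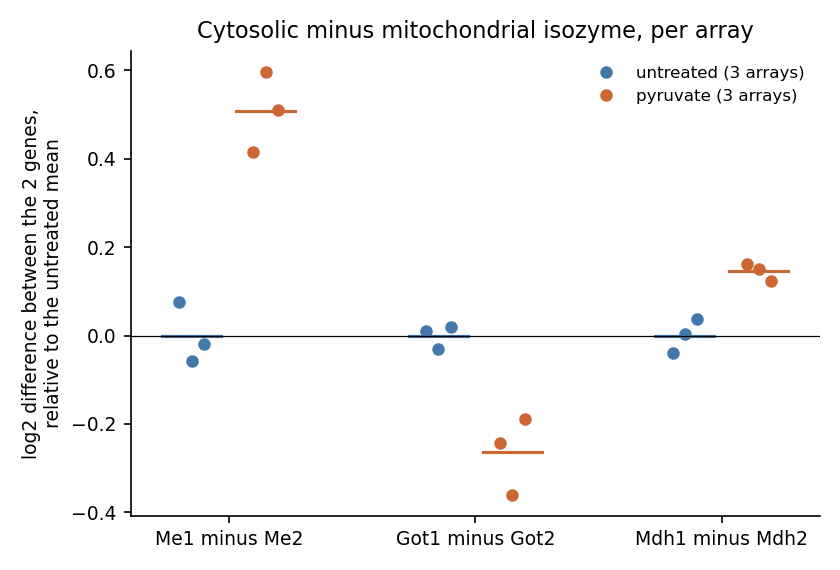
Log2 difference between the cytosolic and the mitochondrial isozyme on each array, relative to the mean of the untreated arrays, for 3 pairs on their brightest probe sets; points are arrays and lines are group means. Pyruvate arrays lie above the untreated ones for Me1 minus Me2 and Mdh1 minus Mdh2 and below them for Got1 minus Got2. On the Mdh1 probe sets that fell, not shown here, Mdh1 minus Mdh2 was -0.74 and -0.66.

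Other genes of these pathways came from lists written from general knowledge of the pathways, and each list is described by its counts beside the background given above. Of the carriers that pass pyruvate, malate, aspartate, glutamate and citrate across the inner mitochondrial membrane, 4 of 6 tested were higher and 0 lower, with a median log2 change of 0.19. Slc25a22, a glutamate carrier, rose by 0.49 (104 ± 25.9 to 151 ± 5.42, adjusted p = 0.015), Slc25a1, which exports the citrate that Acly cleaves, rose by 0.42 (268 ± 11.2 to 364 ± 11.8, adjusted p = 0.00038) and the dicarboxylate carrier Slc25a10 by 0.22 (adjusted p = 0.013). Slc25a12, an aspartate-glutamate carrier of the shuttle, was at 0.09 (adjusted p = 0.43). The pyruvate carrier tested, Mpc1, was not called either (1068 untreated and 1005 with pyruvate, -0.08, adjusted p = 0.29).

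Of further aminotransferases, 2 of 8 tested were higher, 0 were lower and the median was 0.02. After quantile normalization 2 were higher and 1 lower: Psat1, the phosphoserine aminotransferase of serine synthesis, was at -0.13 as scaled by the authors (2491 ± 54.9 and 2284 ± 193, adjusted p = 0.14) and at -0.23 then (adjusted p = 0.0053). Ornithine aminotransferase, Oat, rose by 0.28 (747 ± 8.15 to 912 ± 60.2, adjusted p = 0.0028) and the cytosolic branched-chain enzyme Bcat1 by 0.16 (adjusted p = 0.038). Gpt, the other alanine aminotransferase, was at 102 ± 6.06 and 108 ± 19.2 with a change of 0.07 (adjusted p = 0.70), so the fall of Gpt2 had no counterpart of like size on the Gpt probe set.

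Among other enzymes of the malate, oxaloacetate and citrate pools, 3 of 8 tested were higher, 2 were lower and the median was -0.03. Hlcs, the ligase that attaches biotin to Pcx and other carboxylases, rose by 1.02 with an SE of 0.24 (adjusted p = 0.0082), from 19.3 ± 14.8, under the filter's signal, to 52.1 ± 7.69, so its fold rests on a dim baseline. It passed the brightness filter only through its pyruvate arrays. Its call, 1 of the 3 higher, is therefore given as a value and not as support for a rise. Aco1, cytosolic aconitase, fell from 1329 ± 32.8 to 794 ± 76.5 (-0.74, adjusted p = 1.4e-05). Its probe set carries the suffix x, like those of Mdh1 that fell, and whether that plays a part was not tested. Idh2, the mitochondrial NADP-dependent isocitrate dehydrogenase, had a change of -0.24 (adjusted p = 0.0029). After quantile normalization 1 was higher and 3 lower, and Mdh2, which was higher by 0.23 as scaled by the authors (adjusted p = 0.0055), was at -0.01 (adjusted p = 0.84).

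In glutamine and glutamate metabolism 1 of 7 tested was higher and 3 lower, with a median of 0.10. Glutamine synthetase, Glul, fell from 503 ± 43.4 to 376 ± 21.8 (-0.40, adjusted p = 0.0013), and Gfpt1, which uses glutamine to make hexosamines, fell with a change of -0.24 (adjusted p = 0.0098). Gclc, which uses glutamate for glutathione synthesis, rose by 0.29 (adjusted p = 0.0038). The route by which propionyl-CoA enters the TCA cycle had 2 of 6 genes higher and 0 lower, with a median of 0.15: Mcee, methylmalonyl-CoA epimerase, rose by 0.57 (52.8 ± 2.36 to 86.0 ± 3.18, adjusted p = 0.0018) and Mmut, methylmalonyl-CoA mutase, by 0.28 (adjusted p = 0.010).

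Around Acly and Me1, a list for cytosolic acetyl-CoA and NADPH, which also held the fatty acyl desaturases Scd1 and Scd2, had 1 of 8 tested higher. There 3 were lower, both desaturases among them, and the median was -0.12. The desaturase Scd1 fell from 3017 ± 71.8 to 2298 ± 24.3 (-0.39, adjusted p = 7.8e-05) and fatty acid synthase, Fasn, from 835 ± 51.2 to 701 ± 50.7 (-0.25, adjusted p = 0.013). Pgd, a NADPH-making enzyme of the pentose phosphate pathway, rose by 0.33 (adjusted p = 0.0069), in the direction of Me1. It too was read on a probe set with the suffix x.

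Gpt2, Pck2 and Got1 are often grouped with genes that the transcription factor ATF4 drives, so ATF4 and its enzyme targets were read beside them. Of 14 tested, 7 were higher, 1 was lower and the median was 0.20 (7 and 3 after quantile normalization). Atf4 itself rose from 1936 ± 65.9 to 2676 ± 96.5 (0.46, adjusted p = 4.5e-05), Atf5, a related factor, by 0.48 (adjusted p = 9.0e-05) and Ddit3, a stress-induced factor downstream of ATF4, by 0.39 (adjusted p = 0.00071). Of the enzymes in the list, Phgdh rose by 0.34 (adjusted p = 0.00055) and Chac1 by 0.29 (adjusted p = 0.0080). As scaled by the authors, Asns, Psat1, Psph, Shmt2 and Mthfd2 were not called, and Aldh18a1 was lower (-0.22, adjusted p = 0.028). Phgdh, Shmt2 and Aldh18a1 were read on probe sets with the suffix x. Over the same arrays Gpt2 was lower and Pck2 and Got1, whose printed windows hold the ATF4-type letters, were not called.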

How the data were processed

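RNA of 6 samples was labelled as biotinylated cRNA after TRIzol extraction, per the labels' protocols. Deposited values are signals of MAS5, per the submitters' processing notes, each an intensity on a linear scale for a probe set on an array; the authors had scaled each array to a trimmed mean of 150. Detection calls and probe-level files were not used here. The number of arrays limits the precision.

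Gene symbols came from the platform annotation, with RefSeq (GRCm38.p6) for names. Signals were taken as log2(signal + 16), which understates changes of dim genes. Probe sets other than the 64 controls were tested if their mean was at or above the median of 5.53 (a signal of about 30.3). The groups were compared in R 4.3.3 with limma 3.58.1 (mean-variance trend, two-sided, Benjamini-Hochberg over all 22519 probe sets, threshold 0.05). All adjusted p-values come from limma unless another test is named. The brightest probe set over the 6 arrays stood for a gene. On simulated data for this comparison, 200 of the 22519 probe sets in the fit were changed. There limma recovered 12.0% of changes of 0.25, 58.0% of 0.5, 90.0% of 1 and 98.0% of 2 (log2). Of its 137 calls, 8 were false. In the data a larger share was called, 16.3% higher and 15.9% lower. The adjustment is stricter where few probe sets change, so these rates may be too low for the data. All 10 genes were named with every array's value, and of each other list up to 3 called genes with the largest change. Some further list genes were named for comparison. Of 116 list entries, 107 matched a symbol. The genes, lists, motifs and alternatives were chosen with earlier results of these data known. Samples of equal replicate number did not deviate together (r = -0.01 to 0.02), so no block was used. Figures were drawn with matplotlib 3.10.9.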

Additional observations from a re-analysis of the deposited data

Results flagged for a closer look

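Among probe sets left out of the tests, 2 of the 4 control probe sets for Pcx were higher on every pyruvate array than on every untreated one. Groups did not overlap, in either direction, in 48.6% of all genes tested, so such a separation is common here. The 3′ control had a mean signal of 101 with pyruvate and 59.2 without, and the MB control 45.6 with pyruvate and 15.3 without. No group was large enough to test for a single array that stands apart, and only 1 contrast was available.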

How the results depend on the processing

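Under 11 other settings (pseudocounts of 1 and 64, no filter or a filter at the 75th percentile, quantile, median or cyclic loess scaling, limma without the trend or with robust variances, the replicate block, and probe sets averaged by gene) Pcx, Me1, Got2 and Gpt2 kept direction and call, except that Pcx was not tested under the stricter filter; Pck2, Me2 and Got1 kept their sign and were never called. With the replicate block, 4 genes were higher and 1 lower, and no call of the 10 genes changed. Averaging a gene's probe sets gave 2 genes lower, because Mdh1 reversed to -0.18. Cyclic loess turned the uncalled values of Acly and Glud1 to -0.00084 and -0.0079. The difference Mdh1 minus Mdh2 was 0.35 after quantile and 0.23 after cyclic loess normalization, and -0.74 and -0.66 on the other Mdh1 probe sets, chosen after the values were seen; the cause was not tested. With each array left out in turn, 4 genes were higher and 1 lower throughout, 5 to 7 probe sets were higher and 5 to 7 lower, and the differences ranged from 0.46 to 0.55 for Me1 minus Me2, -0.30 to -0.22 for Got1 minus Got2 and 0.13 to 0.16 for Mdh1 minus Mdh2. On the brightest probe sets, the 95% intervals of the genes that were not called ended at 0.26 for Me2 and at 0.18 to 0.20 for Pck2, Got1, Acly and Glud1, so rises up to those bounds may have gone uncalled. These bounds do not hold for every probe set. Intervals ended at 0.53 for a dimmer Me2 probe set and at 0.34 for the dimmer Pck2 one. Of the other Acly probe sets tested, 1 was called higher at 0.25 and 1 lower at -0.15.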
